A study of Mus musculus with 5 samples.

Results

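Pericentral hepatocyte nuclei were the hepatocyte nuclei of mouse liver in the top 1 of 5 equal rank classes of each library on a pericentral minus periportal score. A nucleus counted as a hepatocyte nucleus when it held at least 2000 UMIs (unique molecular identifiers, 1 per captured RNA molecule), under 10% mitochondrial UMIs, at least 1 UMI of Hnf4a, a hepatocyte transcription factor, and no UMI of Ptprc, Ptprb, Pkhd1 or Col3a1, which mark leukocytes, endothelial cells, cholangiocytes and fibrogenic cells. The score was the mean natural log of 1 plus UMIs per 10000 for Glul, Oat, Slc1a2, Cyp1a2 and Cyp2e1, minus the same mean for Cyp2f2, Hal, Sds, Gls2 and Pck1. Members were thus chosen by the measured levels of these 10 genes, which are described and not tested. Of 57080 barcodes in the 5 libraries, 18236 were hepatocyte nuclei, and 3649 of these were pericentral. The 3 chow libraries gave 671, 1176 and 1254 of them (replicates 1, 2 and 3), and the 2 MASH libraries gave 285 and 263. Because the ranking was made within each library, the number of pericentral nuclei is fixed by the number of hepatocyte nuclei and says nothing of zone size.

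Single-nucleus RNA was sequenced from livers of wild-type male C57BL6/J mice that had eaten either regular chow (3 libraries) or the AMYLIN liver NASH diet (2 libraries) for 5 months, starting at 10 to 12 weeks of age. In that diet 40% of the calories came from fat and 20% from fructose, and 2% cholesterol was added. It brings on metabolic dysfunction-associated steatohepatitis (MASH), the fatty, inflamed and scarred state of the liver. All mice were of 1 sex, and whether a library is 1 mouse or a pool is not stated, so p-values measure the spread between libraries. The comparison asked how the hepatocytes around the central vein respond to the MASH diet, and whether they respond differently from those nearer the portal vein.

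Blood crosses the liver lobule from the portal vein to the central vein, and hepatocytes along this path divide the work. Those around the central vein are kept in their state by Wnt ligands from the central vein endothelium, which act through Frizzled receptors and beta-catenin. They make glutamine from ammonia (Glul, glutamine synthetase), start bile acid synthesis (Cyp7a1) and carry most cytochrome P450 enzymes that oxidize drugs. Periportal hepatocytes make urea, break down amino acids and make glucose.

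The label held against genes that the score did not use. Of 34 further genes known to be pericentral, 32 were higher in the pericentral class than in the lowest rank class (the periportal end) in all 5 libraries, where 12.7% of all 12186 genes tested were. Of 26 further periportal genes, 19 were lower in all 5 libraries, beside 12.6% of all genes. The order of nuclei was set by correlated genes of the same nuclei, so these counts are a description and were not tested. The ranking separated the score genes themselves by construction. In unscaled CPM (counts of the gene relative to all UMIs of the sum), Glul was at 528, 388 and 351 in the pericentral nuclei of the chow libraries and at 1519 and 1836 in those of MASH. At the periportal end it was at 12.9, 26.4 and 12.0 under chow, with MASH libraries at 40.5 and 36.9. Cyp2e1, the ethanol-inducible P450, fell along the axis more gradually, from 3989, 2545 and 1593 in the pericentral nuclei to 261, 570 and 205 at the periportal end in chow, and from 2125 and 2722 to 221 and 636 in MASH.

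Within the pericentral class, the nuclei were not alike. When the ranking was cut into 10 equal steps, of which steps 1 and 2 make up the pericentral class, Glul stood in step 1 at 1000.1, 667 and 657 unscaled CPM for chow and at 2531 and 3129 for MASH. In step 2 it stood at 67.8, 117 and 69.3 and at 471 and 454. After each nucleus was thinned to 2000 UMIs, 32.8%, 35.4% and 27.8% of the pericentral nuclei in chow held a Glul UMI, and 69.8% and 69.2% in MASH. The score at the edge differed between libraries. The last nucleus inside scored 0.439, 0.207 and -0.0335 for chow (0.567 and 0.605 for MASH), and the first outside 0.438, 0.206, -0.0336, 0.565 and 0.605 in the same order. The MASH members were thus chosen at a higher score than those of chow. A ranking over all libraries together would take 26.5%, 18.4% and 11.9% of the chow nuclei and 32.1% and 36.3% of the MASH nuclei.

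**Figure D1:**
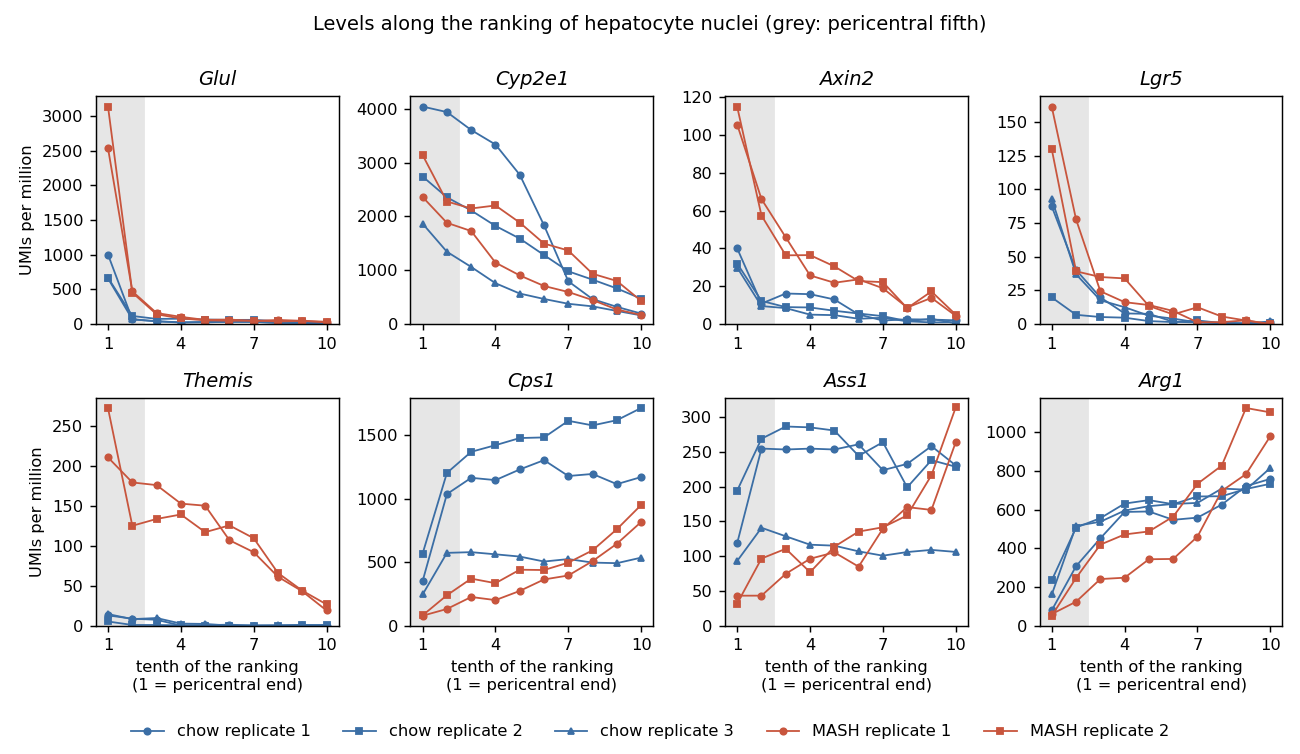
CPM (y axis, linear, unscaled) of 8 genes in the 10 steps of the ranking (x axis, 1 is the pericentral end), 1 line per library, chow in blue and MASH in red, with the pericentral class shaded. Glul and Cyp2e1 belong to the score and the other 6 genes do not; Glul falls from 2531 and 3129 in step 1 of MASH to 471 and 454 in step 2, and Themis lies above the chow libraries in both MASH libraries along the whole axis.

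The libraries differed in ways that touch these nuclei. The exclusion by the 4 genes of other cell types removed 19.9%, 10.3% and 10.3% of otherwise eligible nuclei in chow and 42.3% and 49.2% in MASH. The pericentral nuclei held 1416167 to 6644749 UMIs per library, at a median of 3951.5 to 5373 UMIs per nucleus. Libraries shared 23 to 48 barcodes a pair, at most 0.399% of the smaller one. Chow replicate 3 stood apart by acute-phase RNA: Saa1 (serum amyloid A) was at 282 and 128 CPM (here and in the diet comparison scaled between libraries) in the pericentral nuclei of chow replicates 1 and 2, at 9052 in chow replicate 3 and at 63.7 and 49.7 in MASH. Chow replicate 1 stood apart by Osbpl3, an oxysterol-binding protein, at 128 CPM against 13.3 and 7.30 in the other two chow libraries. No doublet caller was run. RNA of other cell types was low but higher in MASH. The summed unscaled CPM of 12 macrophage markers ran from 18.1 to 42.7 in chow and from 157 to 197.5 in MASH, with Timd4 at 0 in both MASH libraries. For 12 stellate cell markers it ran from 46.5 to 49.4 and from 84.0 to 110, with none at 0 in every library of a diet, and for 15 endothelial markers from 34.0 to 54.6 and from 91.8 to 106, with Wnt9b at 0 in all. For 10 cholangiocyte markers it ran from 457 to 579 and from 936 to 1136, most of it Sorbs2, while Krt7 and Krt19 were at 0 in both MASH libraries. For 11 lymphoid markers other than Themis it ran from 1.17 to 1.92 and from 6.31 to 6.36, with Pax5 and Nkg7 at 0 in all libraries, and for 10 cycling markers from 5.12 to 12.1 and from 23.4 to 45.9, with Hmmr at 0 in both MASH libraries.

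In pericentral nuclei, MASH changed 595 of 11719 genes tested (5.08%, edgeR quasi-likelihood test on the summed counts, adjusted p under 0.05), 381 higher and 214 lower. This sets the background: 3.25% of genes were called higher and 1.83% lower, and the median log2 fold change of all genes was -0.03. Without regard to the test, 23.3% of genes had both MASH values above every chow value and 22% had them below. The count depended on the libraries: it was 1194, 275 and 980 without chow replicates 1, 2 and 3, and 19 and 6 without MASH replicates 1 and 2, where a single MASH library is assumed to vary as the chow libraries do. Without the exclusion by the 4 genes it was 1045, of which 580 were among the 595.

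Part of the Wnt target genes and other pericentral genes rose. Of 34 pericentral genes outside the score, 6 were called higher (Axin2, Rnf43, Nkd1, Rhbg, Gstm3 and Slc22a3) and 3 lower (Cyp2c29, Cyp2c37 and Cyp2c54), with a list median of 0.56 on the log2 scale. With the ranking over all libraries together, which uses 1 score threshold for every library, 4 were called higher and 4 lower, with a median of 0.27. Axin2 (chr11:108920349-108950783, GRCm38, plus strand, protein coding), a scaffold of the complex that destroys beta-catenin and itself a Wnt target, was at 23.5, 22.4 and 24.6 CPM in chow and at 81.8 and 77.1 in MASH. The gap between the diets was far wider than the spread within either, and the log2 fold change was 1.76 ± 0.23 (SE; adjusted p = 0.00727). Rnf43 (chr11:87662722-87735539), a ubiquitin ligase that removes Frizzled receptors, was at 88.0, 45.4 and 65.9 CPM in chow and at 230 and 198 in MASH (log2 fold change 1.69 ± 0.31, adjusted p = 0.0211). Both MASH libraries lay over every chow library. Nkd1, another brake on Wnt signalling, was at 0.510, 0.991 and 0.769 CPM in chow and at 16.8 and 7.26 in MASH (3.89 ± 0.60, adjusted p = 0.0124). Of 18 Wnt targets and regulators tested, these 3 were called higher and none lower, with a list median of 0.43 (0.23 with the ranking over all libraries, which also called 3 higher).

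Other genes of this kind did not pass the test. Tbx3, a transcription factor of pericentral hepatocytes, was at 198, 133 and 142 CPM in chow and 383 and 289 in MASH (1.09 ± 0.29, adjusted p = 0.07). Lgr5, the receptor for R-spondins, was at 58.9, 13.5 and 81.3 CPM under chow, with MASH at 114 and 76.0, so that chow replicate 3 and MASH replicate 2 overlapped (0.89 ± 0.60, adjusted p = 0.397). The Wnt and pericentral counts moved with the libraries: of the 34 pericentral genes, 12, 3 and 11 were called higher without chow replicates 1, 2 and 3, and 0 without either MASH library, where no Wnt target was called. Axin2 and Rnf43 also rose at the periportal end (2.49 ± 0.48, adjusted p = 0.0287, and 1.52 ± 0.31, adjusted p = 0.0337), and the diet effect in pericentral nuclei minus that at the periportal end was -0.74 ± 0.37 for Axin2 (adjusted p = 0.425) and 0.19 ± 0.21 for Rnf43 (adjusted p = 0.757). Along the ranking, Axin2 stood in step 1 at 29.9 to 40.0 unscaled CPM for chow and at 105.5 and 114.9 for MASH.

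The pericentral genes that fell were drug-metabolizing P450 enzymes. Cyp2c29 was at 327, 442 and 465 CPM in chow and at 58.3 and 44.1 in MASH, a log2 fold change of -3.01 ± 0.34 (adjusted p = 0.00441). No library of 1 diet came near those of the other. Cyp2c37 (-2.53) and Cyp2c54 (-3.15) fell likewise. These paralogs resemble each other, and how reads were shared among them is uncertain. In the wider list of P450 and other phase I enzymes, 10 of 57 tested fell and 3 rose, with a median of -0.34. The 10 were the 3 Cyp2c genes named, Cyp2c70, Cyp2j5, Cyp4a12a, Cyp4a12b, Cyp2b10, Ces2a and Cyp51, the last a cholesterol synthesis enzyme. The 3 that rose were Ephx1, Cyp2b9 and Cyp2a22, of which Cyp2a22 went from 6.89, 6.93 and 2.69 CPM to 155 and 125 (4.67 ± 0.39, adjusted p = 0.00218). Of 42 phase II and glutathione genes, Gstm3 was called higher and Ugt2b1, Ugt2b37, Ugt2b38, Ugt2a3 and Sult1d1 lower. Without chow replicate 2, only 2 of the phase I genes and 2 of the phase II genes were called lower.

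The promoters of 2 of the genes that rose and of 1 that fell are printed, because they hold the core letters bound by TCF, the DNA-binding partner of beta-catenin (CTTTGA, read on both strands, TCAAAG on the printed strand when reversed), in capitals within the 250 bases before the start of transcription. The sequences are from RefSeq on GRCm38.p6 and run 5′ to 3′ along the gene.
Slc22a3, chr17:12507705-12507954, minus strand: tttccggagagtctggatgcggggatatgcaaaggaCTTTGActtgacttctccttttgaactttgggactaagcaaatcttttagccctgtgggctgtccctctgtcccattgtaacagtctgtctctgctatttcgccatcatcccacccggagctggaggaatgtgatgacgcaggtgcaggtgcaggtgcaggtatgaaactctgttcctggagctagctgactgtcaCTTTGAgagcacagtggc
Gstm3, chr3:107969175-107969424, minus strand: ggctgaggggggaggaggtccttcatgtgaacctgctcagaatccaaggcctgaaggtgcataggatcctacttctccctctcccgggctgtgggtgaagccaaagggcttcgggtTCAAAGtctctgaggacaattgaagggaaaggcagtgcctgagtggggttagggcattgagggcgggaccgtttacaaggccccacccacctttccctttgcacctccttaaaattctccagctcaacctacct
Cyp2c29, chr19:39286835-39287084, plus strand: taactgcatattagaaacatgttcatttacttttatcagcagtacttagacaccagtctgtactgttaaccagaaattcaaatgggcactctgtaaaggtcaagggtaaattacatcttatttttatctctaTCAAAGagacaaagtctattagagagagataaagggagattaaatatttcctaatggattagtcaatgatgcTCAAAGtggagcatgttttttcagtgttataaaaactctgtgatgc
Slc22a3, an organic cation transporter, held 2 matches, Gstm3, a glutathione transferase, 1 and Cyp2c29 2, so the letters occurred beside genes that moved in either direction. In all, 6 of 22 pericentral genes with an entry held a match and 1 of 11 Wnt targets and regulators (Sp5), beside 14% of 27025 promoters and 11.1% of those of tested genes, and Axin2, Rnf43, Nkd1 and Glul held none in this window. Of 276 genes called higher with an entry 13% held it, and of 162 called lower 16.7%.

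Cps1 and Ass1, enzymes of the urea cycle, fell. Cps1 (chr1:67123026-67231259), the first enzyme of the urea cycle, was at 648, 906 and 531 CPM in chow and at 98.6 and 139 in MASH (-2.55 ± 0.39, adjusted p = 0.0118). Ass1, which joins citrulline to aspartate, was at 175, 237 and 151 and at 40.9 and 55.9 (-1.95 ± 0.32, adjusted p = 0.0144). Both were lower in MASH with no overlap. Arg1 missed the threshold (-1.63 ± 0.43, adjusted p = 0.0668). Rhbg, an ammonium transporter of the pericentral membrane, rose from 4.34, 2.58 and 4.23 CPM to 24.8 and 13.97 (2.37 ± 0.43, adjusted p = 0.0192). Of 21 genes of ammonia, urea and glutamine metabolism tested outside the score, Rhbg was called higher and Cps1 and Ass1 lower. Among the score genes, Oat, which makes glutamate from ornithine, stood at 532, 496 and 249 unscaled CPM in chow and at 289.5 and 285 in MASH, while Hal, which breaks down histidine, stood at 34.3, 24.7 and 21.8 and at 9.89 and 12.0. Pck1, the gluconeogenic enzyme, stood at 1137, 1941 and 1872 and at 376 and 571. Score genes were not tested.

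For Cps1, Ass1 and Arg1 the diet effect was more negative in pericentral nuclei than at the periportal end by a test of the difference itself. At the periportal end alone the log2 fold change was -0.72 ± 0.44 for Cps1 (adjusted p = 0.322) and 0.05 ± 0.32 for Ass1 (adjusted p = 0.942). On counts scaled over both ends together, Cps1 went from 1126, 1751 and 699 CPM in chow to 688 and 739 in MASH at the periportal end, and from 636, 869 and 516 to 94.9 and 135 in pericentral nuclei. The diet effect differed by -1.89 ± 0.21 on the log2 scale (adjusted p = 0.00284). It differed by -1.997 ± 0.20 for Ass1 (adjusted p = 0.00215) and by -1.69 ± 0.27 for Arg1 (adjusted p = 0.0144). Of 26 periportal genes outside the score, 7 had such a negative difference (Cps1, Ass1, Arg1, Kynu, Tdo2, Uroc1 and Slc7a2) and 1 a positive one (Apoa4), beside 0.804% and 0.55% of all 12186 genes tested. In the diet comparison itself, 5 of 25 tested were called lower (Cps1, Ass1, Kynu, Aass and Igf1) and 2 higher (Hsd17b13 and Apoa4).

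The largest rises by log2 fold change were in genes at or near 0 in chow. Fgf21 (chr7:45613886-45615490), a hormone that the liver releases under nutrient stress, was at 1.28, 1.19 and 0.192 CPM in chow and at 66.4 and 116 in MASH (6.68 ± 0.52, adjusted p = 0.00218). Rgs16 (chr1:153740349-153745468), which shortens G protein signals, was at 5.61, 19.6 and 13.1 and at 628 and 708 (5.70 ± 0.49, adjusted p = 0.00218). Hk2, a hexokinase that adult hepatocytes normally lack, was at 0.255, 1.39 and 0.961 and at 62.4 and 47.5 (5.87 ± 0.46, adjusted p = 0.00218). Fgf21, Rgs16 and Hk2 were called under each of the 19 alternatives tried. Ephb2, an ephrin receptor, had 1 UMI over the chow libraries against 171 over the MASH libraries, which gives a ratio of rates of 880.5 (95% counting interval 156 to 34977). Rbm24, an RNA-binding protein, had 0 and 74, so its rate was at least 127-fold higher against a floor of 3 counts over the chow libraries. Rad51b, Trpm4, Plscr4, Fam83a and Adgrv1 completed the 10 largest rises, with log2 fold changes from 5.32 to 6.39. The value for Fam83a was 9.03 without chow replicate 3, the only chow library with its UMIs. Levels were also taken in endothelial-gated nuclei (at least 1 Ptprb UMI and none of Hnf4a or the other 3 genes). For levels their UMI limit was under 2000, and the median per library was 1048.5 to 1780 UMIs. There, Rgs16 and Fgf21 were also higher in MASH. Rgs16 was at 3.74, 11.3 and 10.1 unscaled CPM in chow and at 291 and 272 in MASH. Fgf21 was at 2.80, 7.56 and 0 and at 45.8 and 58.1. The diets overlapped for Plscr4, at 99.0, 11.3 and 40.6 in chow and 27.8 and 68.8 in MASH. For Rgs16 and Fgf21 the MASH levels in pericentral nuclei were the higher ones. How far RNA released from other cells added to the levels of the 10 genes was not tested.

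Of the 10 largest falls, 4 were on the list of male-biased genes (Hsd3b5, Mup1, Serpina1e and Mup7), which pulsed growth hormone keeps high in male liver. Mup12, of the same family as Mup1 and Mup7, was not on that list. Hsd3b5, a male-specific steroid enzyme, had 856 UMIs over the chow libraries against 1 over the MASH libraries, a ratio of rates of 0.00602 (95% counting interval 0.000152 to 0.0336). Mup1, a major urinary protein, had 1912 and 3, Pdgfrl, a receptor-like protein, 745 and 1, and Ugt2b37, a glucuronosyltransferase, 601 and 1. Serpina1e, an antiprotease, was at 272, 1725 and 2309 CPM in chow and at 21.5 and 5.03 in MASH (-6.78 ± 1.14, adjusted p = 0.0155). Nnmt, which methylates nicotinamide, was at 73.0, 89.8 and 519 and at 2.68 and 2.79. Mup7 (-5.98) and Mup12 (-5.65) fell too, as did Egfros (-6.66), a transcript antisense to Egfr, and Meg3 (-6.72), a maternally expressed long non-coding RNA. The Mup genes and the Serpina1 genes are near-identical families, so values of single members are uncertain. The fitted value of Mup1 was -11.99 without MASH replicate 1, which held all 3 of its MASH UMIs. In endothelial-gated nuclei, too, each of the 10 genes was lower in both MASH libraries than in any chow library. Serpina1e was there at 932, 2708 and 3192 unscaled CPM in chow and at 50.7 and 20.5 in MASH. Those chow levels lay above its pericentral ones, whereas Meg3, at 3.74, 3.78 and 67.6 in chow, lay below its own. The part of released RNA in these falls was not tested.

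Of 32 male-biased or growth hormone-dependent genes, all were tested, 21 fell and none rose, with a list median of -2.62. Socs2, an inhibitor of growth hormone signalling and a direct target of it, was at 348, 428 and 208 CPM in chow and at 18.1 and 19.6 in MASH (-4.12 ± 0.42, adjusted p = 0.00398). Cish, of the same family, fell by 2.87 and Igf1, the hormone that growth hormone induces, fell by 2.41 on the log2 scale. Egfr, the epidermal growth factor receptor, was at 424, 1651 and 1971 and at 55.0 and 78.8 (-4.33 ± 0.72, adjusted p = 0.0151). Cyp7b1, an oxysterol hydroxylase, went from 264, 504 and 554 to 26.8 and 19.0. For all of these genes both MASH libraries lay under every chow library. Ghr, the growth hormone receptor, was at 728, 441 and 349 and at 451 and 450 (-0.17 ± 0.37, adjusted p = 0.827). Its diet effect was nevertheless called more negative in pericentral nuclei than at the periportal end by the test of the difference. Of the 32 genes, it was the 1 called so and Mup7 the 1 called more positive, beside 0.804% and 0.55% of all genes. Of 7 female-biased genes tested, Cyp2b9 and Slc22a27 were called higher, and none lower. Leaving out chow replicate 1, 2 or 3 gave 22, 11 or 24 male-biased genes called lower. Leaving out MASH replicate 1 gave 2 of them, and leaving out MASH replicate 2 gave 0. The letters TTCNNNGAA, the core bound by STAT5, stood in 1 of 15 promoters of the called male-biased genes with an entry (C8a) and in 7.18% of all promoters.

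**Figure D2:**
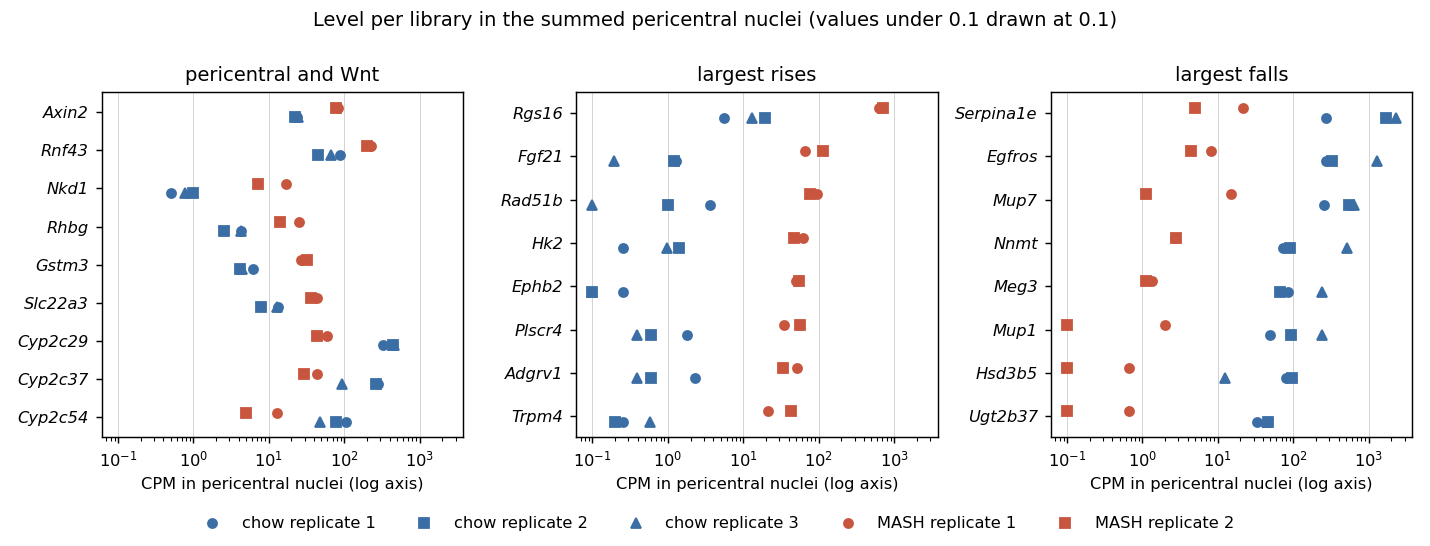
CPM in the summed pericentral nuclei (x axis, logarithmic) for 25 genes, 1 point per library, chow in blue and MASH in red; values under 0.1 are drawn at 0.1. In each of the genes drawn the 2 MASH points lie on the same side of all 3 chow points, as with Axin2 at 77.1 and 81.8 against 22.4 to 24.6.

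Some genes of lipid synthesis rose. Srebf1 (chr11:60199089-60222581), the transcription factor that drives fatty acid synthesis, was at 52.8, 60.0 and 34.6 CPM in chow and at 312 and 266 in MASH (2.55 ± 0.30, adjusted p = 0.00565). Elovl5, which lengthens polyunsaturated fatty acids, rose by 1.42 ± 0.29 on the log2 scale (adjusted p = 0.0321). Elovl3, a male-biased elongase, fell by 2.59. Of 24 lipogenic genes tested, these were the 3 called, and the median was 0.50. Acaca and Fasn, acetyl-CoA carboxylase and fatty acid synthase, were higher in both MASH libraries than in any chow library but missed the threshold (adjusted p = 0.0721 and 0.0547). Of 19 lipid droplet genes, Plin4 (1.52 ± 0.31, adjusted p = 0.0296) and Hsd17b13 (1.25 ± 0.26, adjusted p = 0.0321), which coat droplets, were called higher. Plin2, the most abundant coat protein, was at 642, 558 and 860 and at 735 and 547 (adjusted p = 0.888). By the test of the difference from the periportal end, Plin2 and Mgll had a more positive diet effect in pericentral nuclei. None of the 19 had a more negative one, beside 0.55% and 0.804% of all genes. Of 37 genes of fatty acid oxidation and its regulators, Fgf21 alone was called.

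Some cholesterol synthesis genes fell. Of 24 tested, 5 were called lower (Sqle, Idi1, Nsdhl, Cyp51 and Ebp) and none higher, with a median of -0.54. Idi1, an isomerase of the mevalonate pathway, was at 38.3, 46.4 and 44.2 CPM in chow and at 6.70 and 7.26 in MASH (-2.61 ± 0.31, adjusted p = 0.00597). Sqle, squalene epoxidase, went from 9.95, 33.3 and 54.2 to 0.670 and 1.68. Without chow replicate 2, 1 of the 24 was called. Scarb1, the receptor that takes up cholesterol from HDL, was the 1 gene called among 15 of sterol disposal, at 210, 194 and 249 and at 644 and 594 (1.51 ± 0.28, adjusted p = 0.0211). Of 28 bile acid genes, Slco1a4 and Abcc4, both transporters, rose and Cyp7b1, Cyp2c70 and Slco1a1 fell. Cyp7a1, the rate-limiting enzyme of bile acid synthesis, was at 157, 116 and 42.1 and at 278 and 311 (1.49 ± 0.47, adjusted p = 0.104). In 31 genes of glucose and fructose metabolism, Slc2a2, the glucose transporter GLUT2, rose from 98.2, 95.5 and 34.6 to 265 and 267, Hk2 rose as given, and Pfkfb3, which makes the activator of glycolysis fructose-2,6-bisphosphate, fell from 77.3, 110 and 205 to 27.5 and 34.6.

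Some acute-phase genes fell. Of 32 tested, the fold change was negative for all, with a median of -2.47, and 4 were called: Hamp, the iron hormone hepcidin (-3.63 ± 0.60, adjusted p = 0.015), Serpina3k (-3.98 ± 0.49, adjusted p = 0.00659), Fgl1 (-2.83) and complement C3 (-2.43). Without chow replicate 3, the library with the high Saa1, the median was -1.25, and 17 genes were called lower and 2 higher. Of 26 stress genes, Trib3, Plk2 and Tnfrsf10b were called higher and Gadd45g lower. Among the called genes of 29 hepatocyte transcription factors tested, Esrra, a regulator of mitochondrial genes, rose (1.597 ± 0.30, adjusted p = 0.0228), while Onecut1 fell (-4.49 ± 1.01, adjusted p = 0.042). Onecut1 varied widely in chow, at 490, 998 and 72.5 CPM, against 22.1 and 24.0 in MASH.

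**Figure D3:**
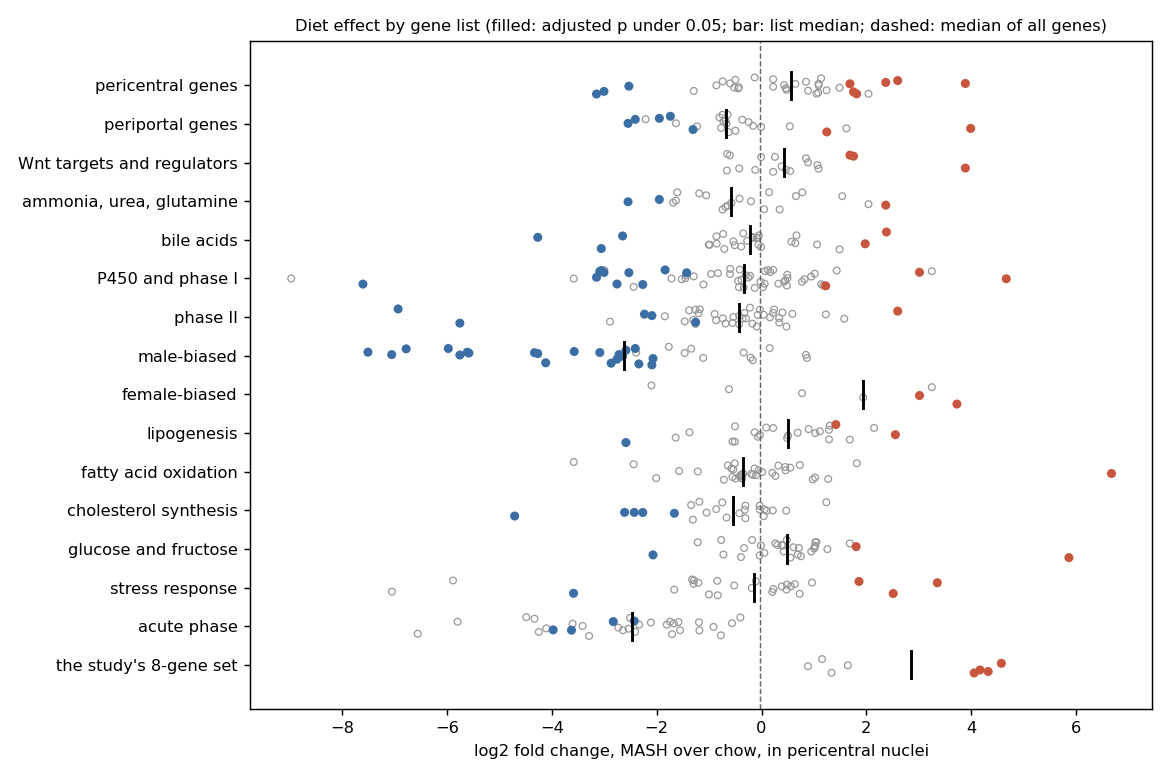
Log2 fold change of MASH over chow in pericentral nuclei (x axis) for the tested genes of 16 lists (rows); filled points passed the adjusted p of 0.05, bars mark list medians and the dashed line the median of all genes at -0.03. Male-biased genes (median -2.62) and acute-phase genes (median -2.47) lie furthest to the left, and 21 and 4 of their genes passed.

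Themis, a gene the study follows in MASH hepatocytes, and some genes of its panel for disease-associated hepatocytes (daHep) rose in pericentral nuclei. Of these 8 genes, 7 of them from the panel, 4 were called higher (Themis, Nrg1, Anxa2 and Sox4) and none lower, with a median of 2.85. The genes were chosen by the study on these libraries, so the direction is not independent evidence. Themis (chr10:28668360-28883818), known as a regulator of T cell receptor signalling in thymocytes, was at 9.95, 2.97 and 14.2 CPM in chow and at 186 and 178 in MASH (4.33 ± 0.51, adjusted p = 0.00585). Anxa2, an annexin, was at 1.53, 2.97 and 4.42 and at 63.7 and 46.9 (4.17 ± 0.41, adjusted p = 0.00334). Nrg1, a ligand of ErbB receptors, was at 0.255, 1.98 and 11.7 and at 87.8 and 73.8 (4.06 ± 0.85, adjusted p = 0.0331, and 6.03 without chow replicate 3). In endothelial-gated nuclei of MASH, Anxa2 was at 81.7 and 50.9 unscaled CPM, Nrg1 at 159 and 121, Sox4 at 40.9 and 68.8 and Themis at 76.8 and 68.8, and the part of released RNA in these 4 calls was not tested. The Nrg1 and Sox4 levels of pericentral nuclei lay below those of endothelial-gated nuclei in both MASH libraries, the Anxa2 levels were near them and the Themis levels lay above them. Gdf15, Klf6, Jun and Cdkn1a did not pass (adjusted p from 0.147 to 0.469). Without chow replicate 3 all 8 were called higher, and none was without MASH replicate 1 or without MASH replicate 2.

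In nuclei thinned to 2000 UMIs, Themis was found in 1.79%, 0.680% and 1.75% of pericentral nuclei in chow and in 27.7% and 30.4% in MASH, and in MASH this share fell to 21.1% and 19.8% in the middle rank class and 4.58% and 4.96% at the periportal end. Nrg1 was found in 0%, 0.595% and 1.91% in chow and in 13.0% and 11.4% in MASH, and in MASH its share was 34.0% and 20.5% in the middle rank class and 21.1% and 25.6% at the periportal end. For shares, only endothelial-gated nuclei with at least 2000 UMIs were used, at a median of 3142 to 3993 UMIs before thinning. These nuclei held Themis in 14.3% and 12.8% and Nrg1 in 24.8% and 18.8% in MASH. The Nrg1 share of pericentral nuclei was below that of endothelial-gated nuclei in both MASH libraries, so it is not read as a share of nuclei expressing the gene. The Gdf15 share, at 25.6% and 25.1% in MASH pericentral nuclei and 24.8% and 24.2% in endothelial-gated ones, was hardly above it. On the log2 scale the diet effect for Themis was smaller in pericentral nuclei than in the middle rank class (difference -2.88 ± 0.37, adjusted p = 0.000696). The difference between pericentral nuclei and the periportal end was -1.56 ± 0.59 (adjusted p = 0.277). In chow the middle rank class was near 0, with Themis in 0.149%, 0% and 0.239% of thinned nuclei. The mean share over libraries went from 1.41% to 29.1% in pericentral nuclei and from 0.129% to 20.4% in the middle rank class.

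Lgr5 was found in 11.8%, 2.98% and 10.6% of pericentral nuclei for chow and 18.6% and 14.4% for MASH, and Cyp7a1 in 21.5%, 17.4% and 6.14% and in 33.3% and 36.1%. Sox4 was found in 0.149%, 0% and 0%, and in 2.11% and 2.28%, with 1.90% and 5.37% in endothelial-gated nuclei of MASH. In the exact two-sided permutation test over libraries, 3 against 2 cannot give a p below 0.1, which was the value for Themis, Nrg1, Gdf15, Sox4 and Cyp7a1; Lgr5 gave 0.2. Adjusted over the 6 genes, these were 0.12 and 0.2. Nrg1 was in 0 of 671 nuclei of chow replicate 1, which allows a share of up to 0.447%, and Sox4 in 0 of 1176 and 0 of 1254 nuclei of chow replicates 2 and 3, which allows up to 0.255% and 0.239%. These limits are for nuclei with a UMI after thinning. Without thinning the shares were 0.149% for Nrg1 and 0.0850% and 0.0797% for Sox4. Without thinning, Themis was found in 5.07%, 1.28% and 4.23% of the pericentral nuclei in chow and in 51.6% and 55.5% in MASH.

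**Figure D4:**
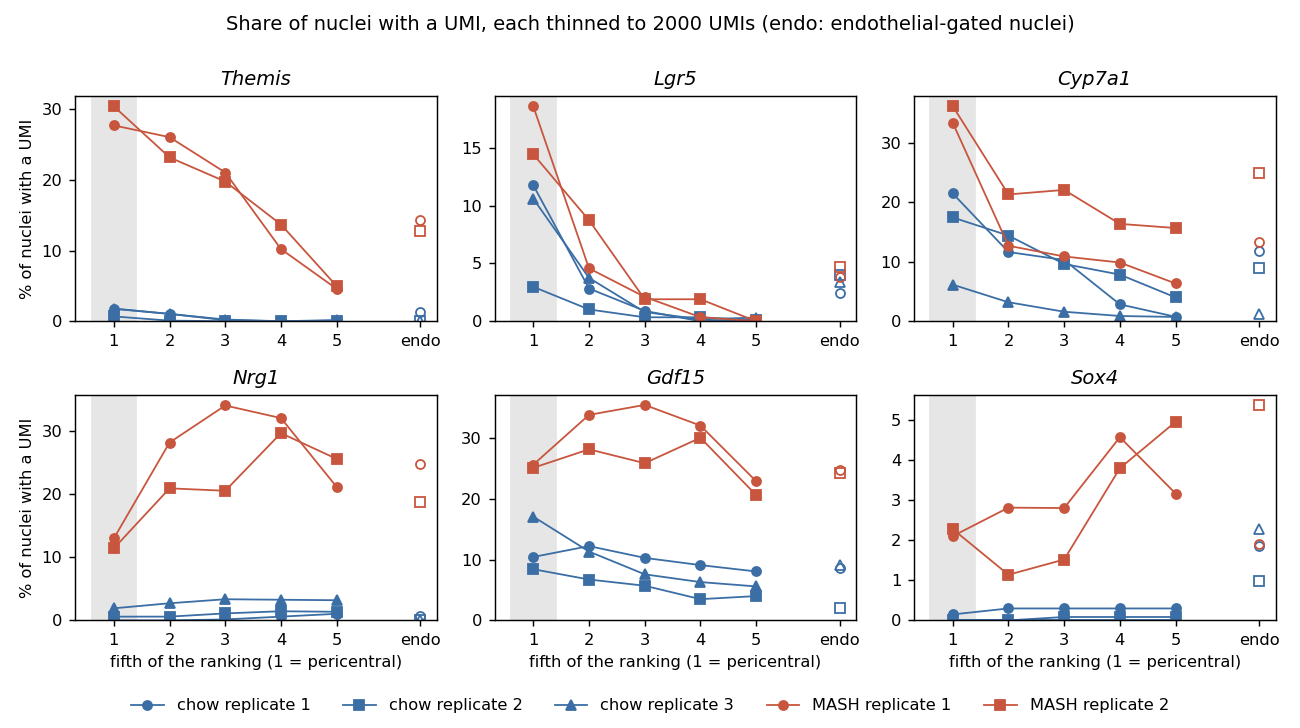
Percent of nuclei with at least 1 UMI of 6 genes (y axis, from 0) after thinning to 2000 UMIs, by rank class (x axis, 1 is pericentral, shaded) and in endothelial-gated nuclei (open points), 1 line per library, chow in blue and MASH in red. Themis is highest in the pericentral class of MASH (27.7% and 30.4%), whereas Nrg1 is lowest there (13.0% and 11.4%).

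The diet effect differed between pericentral nuclei and the periportal end for 165 of 12186 genes (1.35%, edgeR interaction test, 67 more positive and 98 more negative in pericentral nuclei). By sign alone, 46 of the 67 were lower in pericentral nuclei than at the periportal end in chow and higher in MASH. Likewise, 48 of the 98 went from pericentral in chow to periportal in MASH, and 27 stayed pericentral with a smaller difference. No test or minimum size was applied to these signs, so genes with near-equal levels at both ends are counted too. Against the middle rank class, 58 of 12305 genes differed (0.471%, 32 more positive and 26 more negative). Without MASH replicate 1 or 2, 2 and 3 genes were called against the periportal end, and 423 without chow replicate 1.

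Several genes of fat synthesis and glycolysis lost the periportal excess they had in chow. On counts scaled over both ends, Acaca was at 77.1, 147 and 70.8 CPM in pericentral nuclei and at 183, 335 and 180 at the periportal end in chow. In MASH it was at 244 and 240 against 242 and 205. All 3 chow libraries had more at the periportal end, and neither MASH library did. The diet effect differed by 1.38 ± 0.15 (adjusted p = 0.00284). It differed by 1.45 ± 0.27 for Fasn (adjusted p = 0.0266), by 1.83 ± 0.18 for Thrsp, a lipogenic regulator (adjusted p = 0.00215), and by 1.38 ± 0.24 for Pklr, liver pyruvate kinase (adjusted p = 0.0176). Of 24 lipogenic genes these 4 were called positive and none negative, and of 32 glucose and fructose genes 4 were positive (Pklr, Eno1, Gapdh and Tkfc) and none negative, beside 0.55% and 0.804% of all genes. Txnip, which rises with glucose, was at 106, 105 and 51.7 in pericentral nuclei and 389, 220 and 101 at the periportal end in chow, and at 107 and 153 against 47.8 and 62.1 in MASH (difference 2.55 ± 0.27, adjusted p = 0.00284). Apoa4, an apolipoprotein, was at 3.25, 15.0 and 30.8 against 14.9, 78.9 and 189 in chow, and at 281 and 245 against 254 and 167 in MASH (2.83 ± 0.19, adjusted p = 6.3e-05). In endothelial-gated nuclei Apoa4 was at 11.2, 28.4 and 65.9 unscaled CPM in chow and at 435 and 242 in MASH. The part of released RNA in its MASH levels was not tested. Among the 8 most positive differences were also Rgs16 (2.86), Fgf21 (2.78), Serpina12 (2.59), Ihh (2.74), Gadd45b (3.67) and Mup7 (4.26). Mup7 stood at 14.2 and 1.08 CPM in MASH pericentral nuclei and 0.673 and 0 at the periportal end, so its difference rests on few UMIs. For Fgf21 the chow levels were low. It stood at 0, 1.98 and 0.315 unscaled CPM in step 1 of the ranking and at 8.61, 2.91 and 0.669 in step 10.

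Meg3 (chr12:109541001-109571726, long non-coding RNA, overlapping the miRNA genes Mir770 and Mir1906-1 on its strand) had the most negative difference. In chow it was a transcript of the pericentral extreme, at 181, 119 and 389 unscaled CPM in step 1 of the ranking and 6.0, 14.2 and 8.9 in step 2. In MASH it was at 0 and 2.4 in step 1. In the whole pericentral class it was at 86.0, 66.8 and 244 CPM in chow and at 1.34 and 1.12 in MASH (-6.72 ± 0.87, adjusted p = 0.00712). Since it was at 1.55, 1.49 and 3.87 at the periportal end in chow and at 2.02 and 1.29 in MASH, the diet effect differed by -6.22 ± 0.90 (adjusted p = 0.00967).

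Osbpl3 (chr6:50293330-50456201) was pericentral in chow and spread along the axis in MASH. It was at 125, 12.7 and 7.10 CPM in pericentral nuclei and at 5.59, 1.28 and 0.215 at the periportal end in chow, and at 327 and 321 against 285 and 303 in MASH. In endothelial-gated nuclei Osbpl3 was at 58.8, 9.45 and 0 unscaled CPM in chow and at 296 and 224 in MASH. How far released RNA added to its MASH levels was not tested. Each chow library had a pericentral excess, while the MASH libraries had nearly equal levels at both ends, and the diet effect differed by -4.11 ± 0.27 (adjusted p = 6.3e-05), a call made under all 16 alternatives. Vnn1, a pantetheinase (-2.65), Lpl, lipoprotein lipase (-2.60), Airn, an antisense RNA of the Igf2r locus (-4.39), Tlr5, the flagellin receptor (-3.51), Ier3 (-2.97) and the olfactory receptor gene Olfr1034 (-2.92) likewise had a smaller pericentral excess in MASH than in chow, or none. Ier3 rested on chow replicate 3, at 96.0 CPM in its pericentral nuclei and 4.0 to 5.8 in the other two. Hamp showed a larger fall in pericentral nuclei (-2.06 ± 0.32, adjusted p = 0.013). Abcg5 (-1.49) and Abcg8 (-1.33), the sterol exporters of the bile canaliculus, and the Wnt receptor Fzd7 (-1.56) had negative differences too, and Scarb1 (0.91) and Cyp3a11 (1.59) positive ones.

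**Figure D5:**
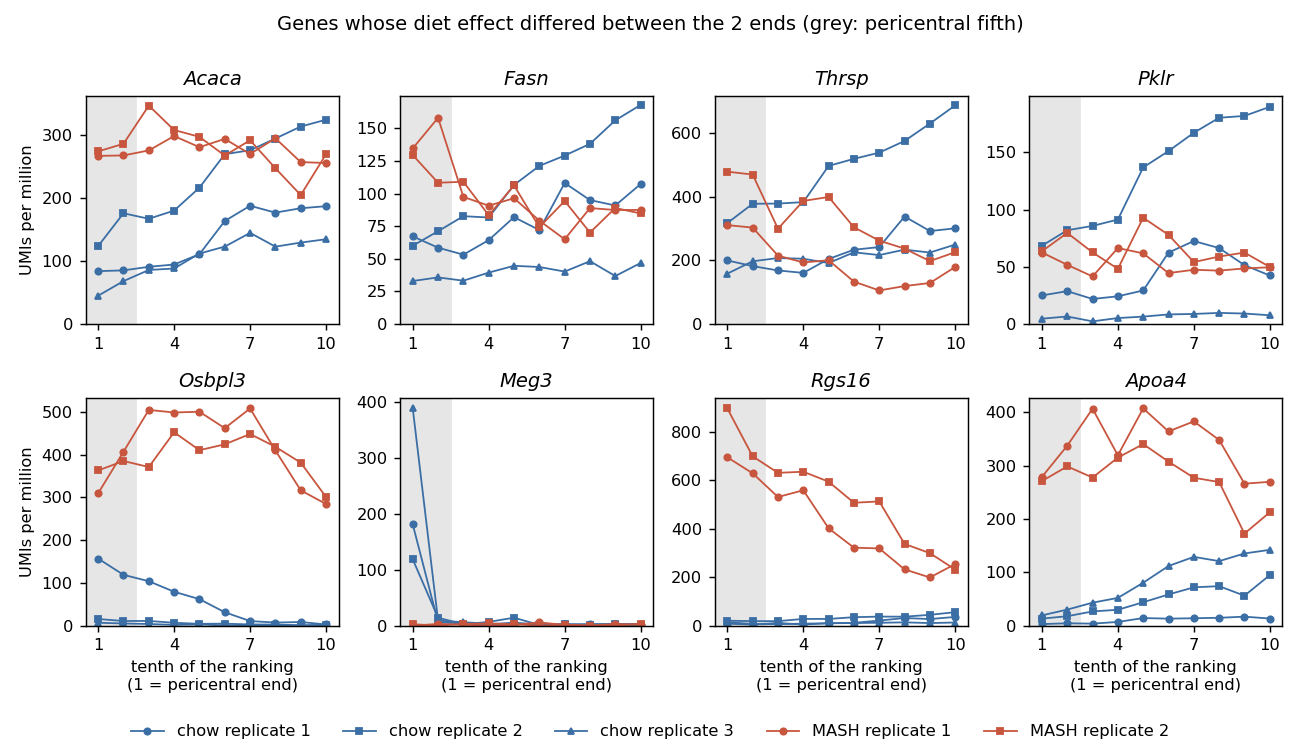
CPM (y axis, linear, unscaled) of 8 genes in the 10 steps of the ranking (x axis, 1 is the pericentral end), 1 line per library, chow in blue and MASH in red, with the pericentral class shaded. Acaca, Fasn, Thrsp and Pklr climb towards the periportal end in chow and not in MASH, and Meg3 stands at 119 to 389 in step 1 of chow and at 0 and 2.4 in MASH.

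Markers of other cell types also passed the test in the summed pericentral nuclei. Among macrophage markers Spp1, Gpnmb and Trem2 were called higher in MASH, among stellate markers Reln, Col1a1 and Col1a2, and among endothelial markers Stab2; of 3 cholangiocyte and 3 cycling markers tested none was called. Spp1, osteopontin, was at 0.765, 2.97 and 7.69 CPM in chow and at 77.8 and 127 in MASH, and in endothelial-gated nuclei at 8.40, 20.8 and 32.1 and at 329 and 657 unscaled CPM. The part of such RNA in the results was not tested.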

How the data were processed

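The authors made droplet-based 3-prime libraries of liver nuclei. The deposited values are unnormalized UMI counts, which the authors obtained with Cell Ranger 8.0.1 and a GRCm38 annotation, and introns were not counted. The matrices list 32285 genes, of which 99.6% matched GENCODE M21 by identifier, and were used as deposited. The members, gene lists and tests were chosen with earlier results of these data known.

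UMIs were summed per library and rank class. Diets were compared with the quasi-likelihood test of edgeR 4.0.16 in R 4.3.3 (TMM, filterByExpr, Benjamini-Hochberg over all genes tested, called at adjusted p under 0.05, two-sided). The interaction of zone and diet was fitted with library as a block. Each SE was computed from the log2 fold change and its F statistic. CPM in the diet comparison are scaled by TMM over 5 sums and CPM at both ends over 10. The 10 score genes and 5 gate genes stayed in the fits and were not tested. Scripts were tested on simulated counts. Intervals and floors cover counting error only, and the replicate sums of 1 diet differed by more than sampling noise.

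Genes were named by a rule: called, with both MASH libraries on 1 side of all chow libraries, a mean of at least 20 CPM in the higher diet and no predicted-gene name, the 10 largest rises and falls; for the interaction, a mean of at least 20 CPM in 1 of the 4 zone and diet groups, the 8 most positive and 8 most negative; and from the lists, members showing the largest rise, fall and level, besides Ghr, Fzd7, Saa1, Onecut1 and other members named for their role after their values were seen. The alternatives were DESeq2 1.42.0, its size factors, other filters and the top 10% of nuclei. A score without its pericentral P450 genes, Cyp1a2 and Cyp2e1, was tried, as were thinned nuclei and limits of 4000 UMIs or 5% mitochondrial UMIs. Further alternatives left out the 5% of nuclei with the most UMIs or each library, or used Storey's q-values or a pooled ranking. The last, chosen after seeing the data, made no exclusion by the 4 genes. Some results are not reported here.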

Additional observations from a re-analysis of the deposited data

Results flagged for a closer look

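The diet effect differed between pericentral nuclei and the periportal end by the interaction test, which is what marked the following genes among those named. As the diet effect in pericentral nuclei minus that at the periportal end (log2), it was more positive for Mup7 (4.26), Gadd45b (3.67), Rgs16 (2.86), Apoa4 (2.83), Fgf21 (2.78), Ihh (2.74), Serpina12 (2.59) and Txnip (2.55). It was more negative for Meg3 (-6.22), Airn (-4.39), Osbpl3 (-4.11), Tlr5 (-3.51), Ier3 (-2.97), Olfr1034 (-2.92), Vnn1 (-2.65) and Lpl (-2.60). Apoa4 and Osbpl3 were called under all 16 alternatives, and Ihh under 3 of 16.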

How the results depend on the processing

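Counts of called genes moved with the settings more than directions did. For the diet comparison (595), the count was 1844 with no filter on low counts (46.4% higher, against 64.0%), 370 with a stricter filter, 361 after thinning, 1151 with Storey's q-values, 1147 with DESeq2 (52.8% higher), 1045 without the exclusion by the 4 genes, and 6 to 1194 with 1 library left out. The deviations of same-numbered libraries from their diet means correlated at r of -0.0468 and -0.118. With 2 MASH libraries, whose deviations mirror each other, this check cannot settle whether the numbers pair the libraries. With a replicate block 1094 genes were called. For the difference from the periportal end (165), it was 553 with no filter, 66 after thinning, 293 without the exclusion and 2 to 423 with 1 library left out. For that from the middle rank class (58), it was 230 with no filter and 128 in the top 10% of nuclei. It was 98 with the score without Cyp1a2 and Cyp2e1, 30 at 4000 UMIs, 23 after thinning and 37 without the heaviest nuclei. It was 128 without the exclusion and 12 to 96 with 1 library left out. None of the 10 largest rises, 10 largest falls and 16 zone differences changed direction in its own comparison under any alternative that gave a value. With 2 MASH libraries, and 1416167 UMIs in the smaller of their sums, genes of few UMIs could not be resolved.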
